A study of Mus musculus with 18 samples.

Results

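Astrocytes grown together with neurons were compared at day 4 and day 2 of co-culture, over all genes. The members are the 6 libraries of those 2 groups, 3 per group, of 18 libraries in the series. They were chosen by the sample labels and joined into 3 pairs by replicate number, and the labels give all libraries of one number the same date. The title of the series gives its question as which astrocyte transcripts respond to contact with neurons, and the pairs ask what differs between the earlier and the later collection while neurons are present.

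The mouse astrocytes had been dissected from newborn (P0) cortex and cultured for 2 weeks in medium with 10% serum, which was replaced by serum-free N2 medium at confluence. In both co-culture groups, P0 hippocampal neurons from mice carrying the red fluorescent protein TdTomato were then plated on the astrocytes. The groups differ in the time allowed, 2 days or 4 days. Cells were detached, and those without TdTomato were sorted, with the gate set on astrocytes kept alone. A second kind of culture, astrocytes alone in the same medium without neurons, was collected at the same days and serves below as the background for time in culture. The labels name no strain, sex or number of animals. They also do not say that replicates came from separate animals, so each p-value reflects the spread among these cultures, which may be technical.

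Astrocytes are the glial cells that clear glutamate and potassium around synapses, are joined to each other by gap junctions, and supply neurons with cholesterol, lactate and precursors of glutathione. In culture with serum they divide and take on features of reactive, injury-like astrocytes. Contact with neurons is known to favour their mature expression program, in which glutamate transporters and connexins are high.

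The 6 libraries held 14102928 to 29220636 reads on genes, so that 3 reads correspond to 0.103 to 0.223 CPM, the reads of a gene scaled to a common library size. Of 26301 genes in the table, 22229 had a read in at least 1 of the 18 libraries and 17092 passed the filter on low counts. Of the tested genes, 90.9%, 86% and 93.8% were detected at day 2 (replicates 1, 2 and 3) and 96.8%, 98.1% and 83.2% at day 4. Replicate 2 therefore detected fewer genes at day 2 and replicate 3 fewer at day 4. The mitochondrial ribosomal RNA mt-Rnr2 took 5.35% of the reads in replicate 2 at day 2 and 11.5% to 14% in the other 5 libraries. A further pair of libraries, replicate 1 of astrocytes alone at day 2 (92.5% of reads on 1 gene) and replicate 1 of the day 7 co-culture (40.5% on mt-Rnr2), was left out of the fit. Neither belongs to the 6 compared.

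All 7 defining astrocyte markers were present in each of the 6 libraries. Gfap, the intermediate filament of astrocytes, measured 134, 580 and 1780 CPM at day 2 and 186, 636 and 2220 CPM at day 4 (replicates 1, 2 and 3 in this and every later series of 3 values). Replicate 3 was highest and replicate 1 lowest at both days. Aldh1l1, a folate enzyme used to mark astrocytes, measured 341, 405 and 403 CPM and then 347, 263 and 252 CPM. S100b, a calcium-binding protein that mature astrocytes make, was close to absent, with 0, 0.0564 and 0.289 CPM at day 2 and 0, 0.49 and 0 CPM at day 4.

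Markers of other cells were also found after the sort. The summed level of 24 neuron markers was 489, 324 and 364 CPM at day 2 and 500, 285 and 394 CPM at day 4, and 1 of them was at 0 in all 6 libraries. Within this list the synaptic gene Snap25 had reads in 1 library only, whereas Stmn2, a regulator of microtubules in growing axons, measured 316, 190 and 127 CPM and then 273, 139 and 43.3 CPM. Astrocytes alone, without plated neurons, had Stmn2 at 139 and 149 CPM at day 2 (replicates 2 and 3) and 362, 145 and 55.5 CPM at day 4. In those cultures the neuron marker Dcx measured 0.035 and 0 CPM and then 0, 0.165 and 0 CPM. The sum is therefore not a measure of neurons left after the sort. For 20 microglia and macrophage markers the sum was 94, 450 and 55.8 CPM at day 2 and 138, 258 and 72.4 CPM at day 4. All 6 defining microglial markers, Aif1, Cx3cr1, Csf1r, Tyrobp, C1qa and P2ry12, had no read in at least 1 library. The 16 markers of ciliated ependymal cells summed to 275, 629 and 785 CPM and then 408, 514 and 935 CPM. The 16 markers of fibroblasts and meninges gave 229, 315 and 288 CPM and then 314, 318 and 471 CPM. The 18 oligodendrocyte markers had 202 to 560 CPM at day 2 and 215 to 318 CPM at day 4, and 3 of them were at 0 throughout. The 15 endothelial and mural markers had 329 to 361 CPM and 295 to 365 CPM. Cldn5, a defining endothelial marker, had no read in any of the 6. In such bulk samples, fewer cells of a type and less RNA per cell cannot be told apart.

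No gene passed the test between day 4 and day 2. With edgeR's quasi-likelihood test, which fitted 16 libraries with the replicate number as a block, 0 of 17092 genes (0%) had a Benjamini-Hochberg adjusted p under 0.05. The smallest adjusted p was 0.399. An unadjusted p under 0.05 was reached by 1137 genes (6.65%), 701 higher at day 4 (4.1%) and 436 lower (2.55%). DESeq2 on the same model called 65 genes (0.38%), 51 higher and 14 lower. Of these, 24 averaged 1 log2 CPM or more and had one direction in the 3 pairs. The 2 tools therefore disagree on whether any gene passes.

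Across all tested genes the median log2 difference, day 4 minus day 2, was 0.01, and 50.5% of genes were fitted higher. On this scale a value of 1 is a factor of 2. The pair medians were 0.01, 0.09 and -0.07 for replicates 1, 2 and 3. In all 3 pairs 2325 genes were higher (13.6%) and 2455 were lower (14.4%). Among the 5358 genes that averaged 5 log2 CPM or more, these shares were 15.7% and 19.7%. The 3 day 4 values lay above all 3 day 2 values for 605 genes (3.54%) and below them for 544 (3.18%). These shares are the background for the gene groups below. Since no gene was called, the text gives values and the number of pairs, and no gene is said to have changed.

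The difference also followed base composition. Genes averaging 3 log2 CPM or more were put into 5 classes of equal size by the GC content of their longest transcript. The fitted median was 0.20 in the class with the lowest GC (31% to 43.8%) and -0.21 in that with the highest (55.2% to 67.3%). This slope was steep in the pairs of replicate 1 (0.26 to -0.27) and replicate 2 (0.24 to -0.31) and shallow in that of replicate 3 (0.13 to -0.06). Astrocytes alone had the slope in replicate 2 (0.28 to -0.21) but not in replicate 3 (0.00 to -0.06). Its part in single results was not tested. A fit with an offset for GC content and length, chosen after seeing the data, is therefore given beside the groups.

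**Figure D1:**
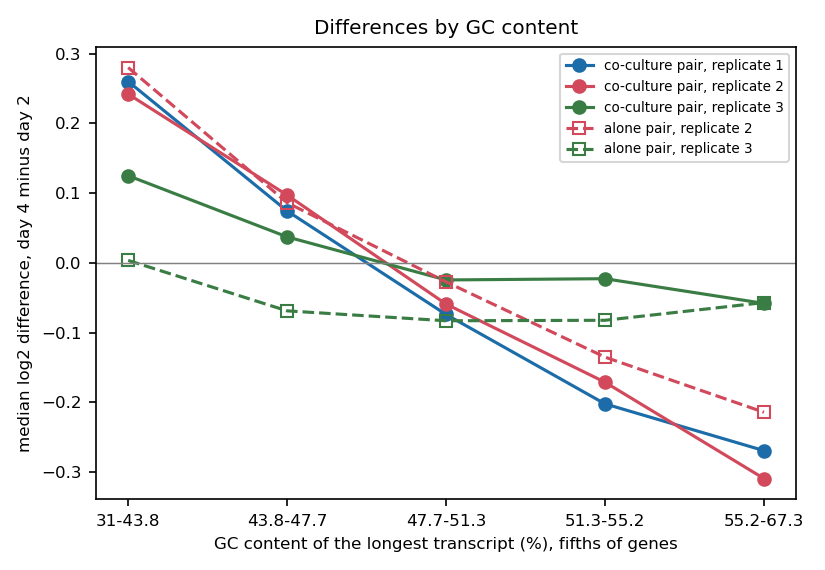
Median log2 difference, day 4 minus day 2 (vertical), over 5 classes of genes ordered by GC content in percent (horizontal). Lines join the medians of one pair: filled circles for the 3 co-culture pairs, open squares for the 2 pairs of astrocytes alone. The pairs of replicates 1 and 2 run from above 0 at low GC to below 0 at high GC, and the co-culture pair of replicate 3 from 0.13 to -0.06.

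The 10 genes with the smallest p among those higher in all 3 pairs included enzymes, secreted proteins and adhesion molecules, and 7 of them had groups that did not overlap. Over all tested genes this share was 3.54%. The choice by smallest p favours such separation, so nothing is read from the 7. The smallest p belonged to Rida, a mitochondrial and cytosolic deaminase that clears reactive intermediates of amino acid breakdown. It measured 17.6, 19.3 and 40.1 CPM at day 2 and 50, 43.3 and 95.7 CPM at day 4. All day 4 values lay above all day 2 values, with means of 25.7 ± 12.5 (SD, n = 3) and 63 ± 28.5 CPM (SD, n = 3). Its log2 difference was 1.31 (SE 0.22, edgeR adjusted p = 0.399).

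Pla2g7 encodes a secreted lipase that breaks down platelet-activating factor and oxidized phospholipids. It measured 60.5, 53.8 and 301 CPM at day 2 and 159, 158 and 615 CPM at day 4, a log2 difference of 1.33 (SE 0.30). Each pair was higher at day 4, while the groups overlapped because replicate 3 was high at both days. Gclc, the catalytic subunit of the enzyme that limits glutathione synthesis, measured 70.4, 88.9 and 134 CPM and then 139, 169 and 254 CPM (0.95, SE 0.22). The groups did not overlap, and the size of the step was alike in the 3 pairs.

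Sparcl1, or hevin, is a secreted protein through which astrocytes promote the formation of synapses. It measured 4.6, 18.7 and 44.5 CPM at day 2 and 15.2, 32.8 and 74.7 CPM at day 4 (1.12, SE 0.28). Replicates differed more among themselves than the days did, and each pair was higher at day 4. Vit, the matrix protein vitrin, measured 9.58, 9.14 and 13.3 CPM and then 18.7, 20.7 and 45.8 CPM (1.33, SE 0.34), with no overlap. Itgb1bp1, which binds the tail of integrin beta 1, measured 11.4, 5.13 and 8.03 CPM and then 15.9, 19.9 and 29.2 CPM (1.39, SE 0.35), again with no overlap.

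The other 4 were expressed at low levels at day 2. Dscaml1, a cell adhesion molecule of the immunoglobulin family, measured 0.79, 0.395 and 1.25 CPM and then 3.27, 13.7 and 8.46 CPM (3.33, SE 0.77). Cyp4f15, a cytochrome P450 that oxidizes fatty acid derivatives, measured 1.24, 0.169 and 1.63 CPM and then 7.97, 4.3 and 11.1 CPM (3.27, SE 0.82). Both were separated between the days. Pld5, a member of the phospholipase D family, measured 1.24, 5.3 and 2.6 CPM and then 13.7, 6.91 and 26.6 CPM (2.60, SE 0.67). Hc, complement component C5, measured 2.06, 0.564 and 5.24 CPM and then 4.97, 4.73 and 28 CPM (2.17, SE 0.55), with overlap. Of the 10 genes, DESeq2 called all, and edgeR's adjusted p was 0.72 for each of the 9 other than Rida.

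The 10 genes with the smallest p among those lower in all 3 pairs held signalling genes and a secreted neuropeptide precursor, and 7 again had groups that did not overlap. Over all tested genes this share was 3.18%, and the choice favours separation here too. Ciapin1, which takes part in assembling cytosolic iron-sulfur proteins, measured 32.8, 47.3 and 28.5 CPM at day 2 and 18.9, 13.8 and 9.72 CPM at day 4. Every day 4 value was below every day 2 value, and the log2 difference was -1.37 (SE 0.31). Nod1, a sensor of bacterial cell wall fragments, measured 23.6, 31.3 and 42.1 CPM and then 15.3, 12.9 and 8.16 CPM (-1.43, SE 0.34), without overlap.

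Vgf, the precursor of secreted peptides that growth factors induce, measured 42.7, 37.8 and 5.87 CPM and then 10.9, 5.71 and 0.445 CPM (-2.50, SE 0.60). Replicate 3 was low at both days, so the groups overlapped while each pair was lower. Rgs16, which shortens signalling by G proteins, measured 165, 143 and 37.1 CPM and then 75.4, 50.3 and 3.93 CPM (-1.76, SE 0.45), with the same order of replicates. Adamts4, a protease that cuts the proteoglycans of the brain matrix, measured 18.5, 41 and 9.86 CPM and then 10.7, 11.3 and 0.668 CPM (-1.98, SE 0.55), also with overlap.

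Lrp3, a lipoprotein receptor-related protein, measured 41, 44.5 and 26.4 CPM and then 23, 19.9 and 9.8 CPM (-1.12, SE 0.29). Anks1, an adaptor of Eph receptors, measured 50.2, 54.3 and 62.2 CPM and then 28.9, 32 and 38.6 CPM (-0.75, SE 0.20). Vps52, a tethering factor for vesicles returning to the Golgi, measured 81, 107 and 82.3 CPM and then 53.9, 55.3 and 39.9 CPM (-0.85, SE 0.23). Ints1, a subunit of the Integrator complex that ends transcription of small nuclear RNAs, measured 143, 208 and 152 CPM and then 111, 113 and 82.5 CPM (-0.71, SE 0.20). None of these 4 overlapped. Rpsa, a ribosomal protein, measured 196, 148 and 115 CPM and then 92.2, 56.4 and 76.7 CPM (-1.02, SE 0.25). It has many processed copies in the genome, so its reads may be shared with them.

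All 20 kept their sign with the GC and length offset. The 10 lower genes had a median GC content of 56.4% and the 10 higher genes 48%. DESeq2 called 7 of the 10 lower genes, all except Vps52, Ints1 and Adamts4.

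**Figure D2:**
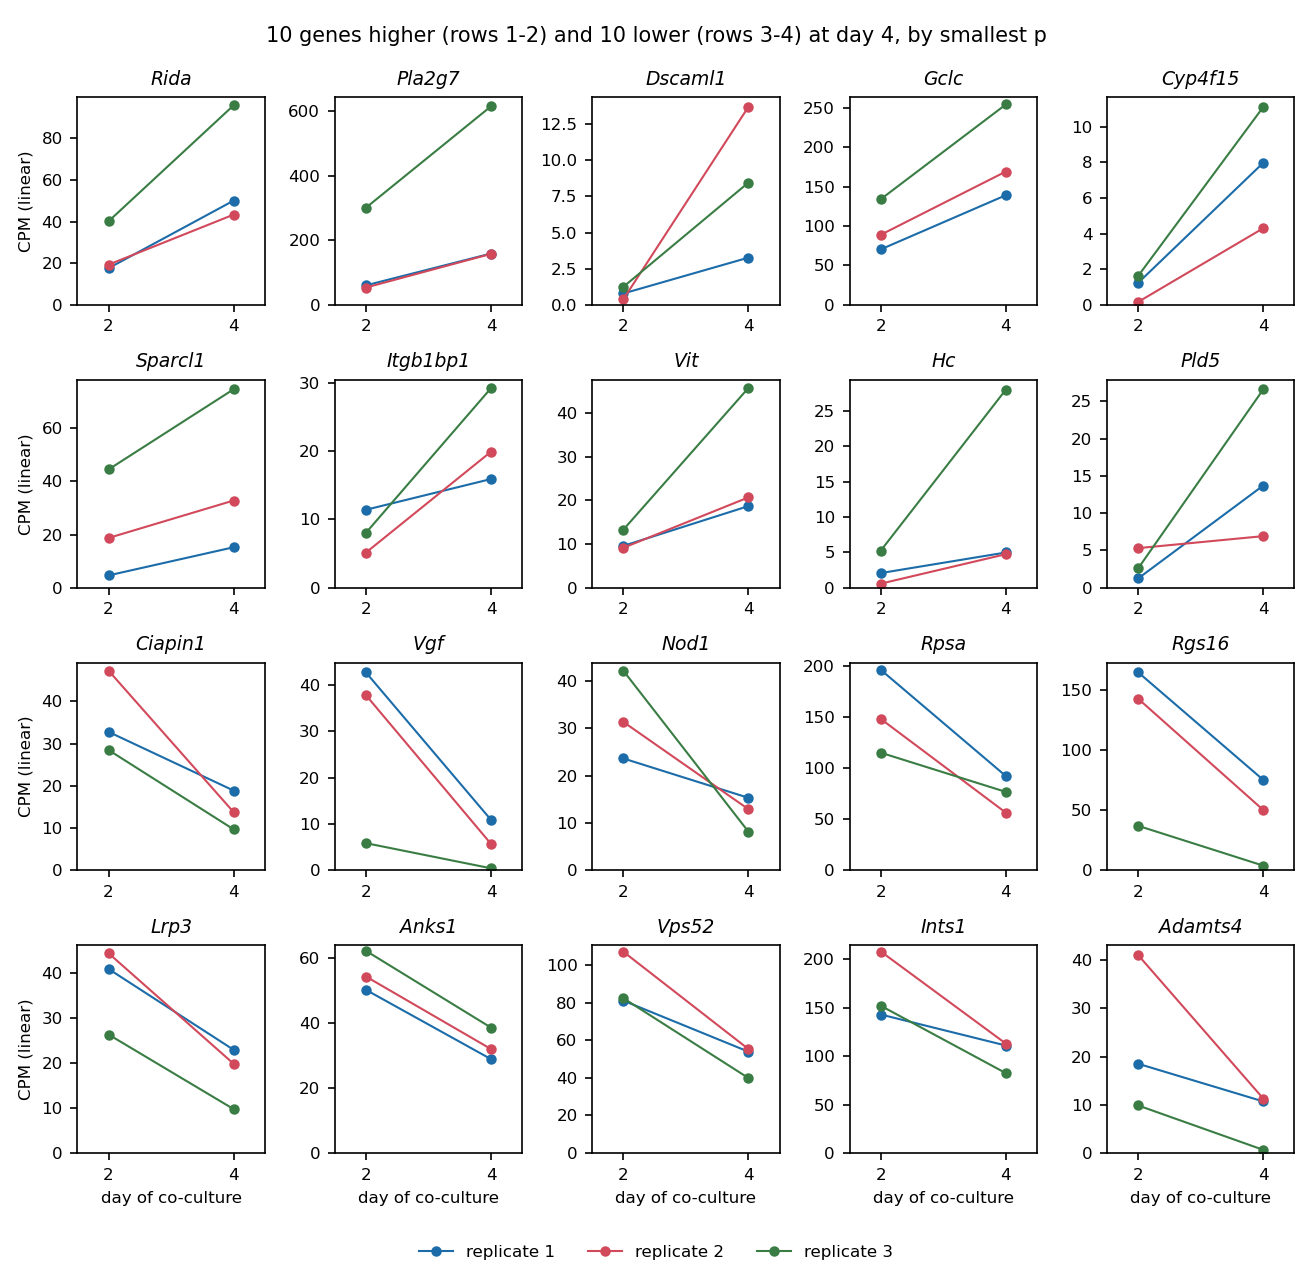
TMM-scaled CPM on linear axes from 0 (vertical) against day of co-culture (horizontal) for the 10 genes with the smallest p that were higher in 3 of 3 pairs and the 10 that were lower. Lines join the 2 libraries of one replicate number. For Rida the 3 day 4 points (43.3 to 95.7) lie above the 3 day 2 points (17.6 to 40.1), and for Anks1 they lie below (28.9 to 38.6 against 50.2 to 62.2).

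The gene groups were 36 lists with 741 memberships, of which 712 passed the filter on low counts. They comprise 30 lists of functions and pathways and 6 of markers for other cells. The lists and the rule that picks up to 4 members of each for naming were written with earlier results of these data known. Their counts and medians are therefore descriptions, with no test over a list. The rule picks only members with one direction in all 3 pairs. Apart from a set of markers named whatever their result, a shared direction in a named member follows from this choice. No member of any list was called by edgeR. Over the functional lists, the medians of all 3 pairs were above 0 in 5 lists and below 0 in 8, and the sign of the fitted median was the same under all 23 alternatives in 16.

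**Figure D3:**
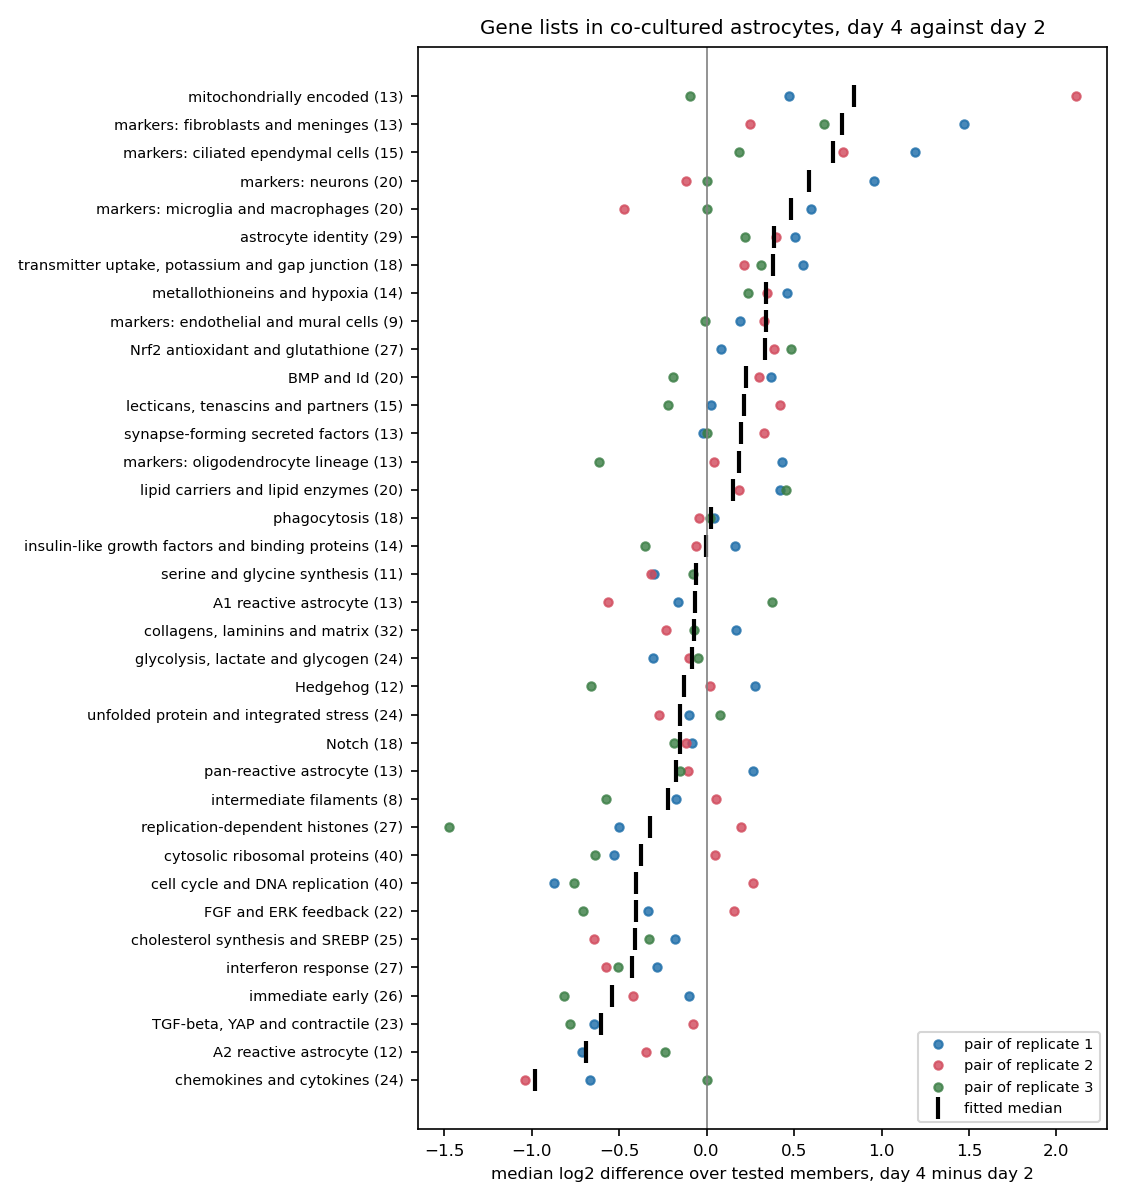
Median log2 difference over the tested members of each list, day 4 minus day 2 (horizontal), with the number of members in brackets. Coloured points are the medians of the 3 pairs and black bars the fitted medians. Astrocyte identity has 3 points above 0 (0.50, 0.40 and 0.22) and cholesterol synthesis 3 points below 0 (-0.18, -0.64 and -0.33), while the mitochondrially encoded genes spread from -0.09 to 2.11.

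Genes of astrocyte identity were mostly higher at day 4. Of 29 members, 25 were fitted higher, 14 were higher in all 3 pairs and 0 lower in all 3. The median was 0.39, against 0.01 for all genes, with pair medians of 0.50, 0.40 and 0.22 and a median of 0.47 with the GC and length offset. An unadjusted p under 0.05 was reached by 5 members, all higher, and the groups overlapped for all 29. Slc1a3, the glutamate transporter GLAST, measured 378, 216 and 940 CPM at day 2 and 571, 428 and 1330 CPM at day 4 (0.68, SE 0.24, edgeR adjusted p = 0.72). Replicate 3 was the highest at both days and each pair was higher at day 4.

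Ndrg2, a cytoplasmic protein abundant in mature astrocytes, measured 20.2, 41.7 and 94.6 CPM and then 37.7, 67.1 and 152 CPM (0.76, SE 0.26). Ttyh1, a membrane protein of radial glia and astrocytes, measured 59.7, 72.8 and 240 CPM and then 81.5, 115 and 280 CPM (0.44, SE 0.21). Sox9, a transcription factor that specifies astrocytes, measured 97.6, 118 and 196 CPM and then 138, 187 and 229 CPM (0.47, SE 0.22). In these 3 genes replicate 1 was lowest and replicate 3 highest at both days. Ntsr2, a neurotensin receptor, was near the floor in replicates 1 and 2, with 0.103, 0 and 5.24 CPM and then 1.5, 0.435 and 15.5 CPM (2.68, SE 1.17).

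The transport genes overlap this list in part. In the list of transmitter uptake, potassium channels and gap junctions, 16 of 18 tested members were fitted higher, 7 were higher in all pairs and 0 lower in all (median 0.38, with the offset 0.41). Without replicate 1 of day 4 the median was 0.17. Gja1, connexin 43, which forms the gap junctions between astrocytes, measured 142, 161 and 298 CPM and then 186, 192 and 665 CPM (0.61, SE 0.30). Aqp4, the water channel of astrocyte endfeet, measured 254, 635 and 1100 CPM and then 467, 710 and 1500 CPM (0.49, SE 0.39). Slc38a3, which moves glutamine, measured 125, 112 and 227 CPM and then 178, 133 and 306 CPM (0.40, SE 0.24).

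Slc1a2, the second astrocytic glutamate transporter (GLT-1), measured 29.4, 245 and 155 CPM and then 49.6, 294 and 262 CPM (0.58, SE 0.52). All 4 were higher in 3 of 3 pairs, and their groups overlapped. Glul, glutamine synthetase, did not share the direction in all pairs, with 240, 313 and 537 CPM and then 386, 387 and 417 CPM (0.25, SE 0.29). Aldh1l1, given above, had a difference of -0.40 (SE 0.24).

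Intermediate filament genes were divided, with 2 of 8 fitted higher and a median of -0.22, which was above 0 without replicate 3. Gfap had a difference of 0.31 (SE 0.29) and was higher in all 3 pairs. Synm, or synemin, a partner of Gfap and vimentin, measured 43.1, 22.4 and 51.2 CPM and then 73.2, 56.5 and 64.9 CPM (0.75, SE 0.34), with no overlap. Vim measured 4310, 6130 and 3830 CPM and then 3890, 5240 and 3440 CPM (-0.18, SE 0.29). Lmna, nuclear lamin A and C, measured 250, 251 and 138 CPM and then 145, 163 and 103 CPM (-0.62, SE 0.27). The last 2 were lower in all pairs. Nes, the filament of neural progenitors, measured 1170, 581 and 1020 CPM and then 1020, 612 and 573 CPM (-0.31, SE 0.29).

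Antioxidant genes, many of them targets of the transcription factor Nrf2 (Nfe2l2), were also mostly higher. Nrf2 acts when oxidants release it from its inhibitor Keap1, and through it astrocytes make glutathione and pass its precursors to neurons. Of 27 members 20 were fitted higher, 12 were higher in all pairs and 2 lower in all. The median was 0.33 (0.08, 0.38 and 0.48 by pair; 0.32 with the offset; 0.18 without replicate 3 of day 2 and 0.53 without replicate 1 of day 2), and 4 members had an unadjusted p under 0.05, all higher. Gclm, the regulatory subunit that works with Gclc, measured 42.8, 34.5 and 49.5 CPM and then 52.8, 42.2 and 98.1 CPM (0.54, SE 0.23). Srxn1, which repairs overoxidized peroxiredoxins, measured 78.8, 50.6 and 53.9 CPM and then 126, 113 and 254 CPM (1.30, SE 0.39), with no overlap. Gstm1, which conjugates glutathione to electrophiles, measured 179, 105 and 112 CPM and then 244, 297 and 153 CPM (0.78, SE 0.35). In Srxn1 and Gclm the largest step was in replicate 3, and in Gstm1 in replicate 2.

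Promoters were searched for the known sites of the regulators of the antioxidant and the cholesterol lists, and those of the antioxidant list, of which more held a match, are shown. The antioxidant response element was searched as TGACNNNGC on both strands in the 250 bases before each start site of RefSeq (GRCm38.p6). Some of its matches can also be sites of AP-1 (TGACTCA). Of the 22 members with a promoter entry, 8 held a match, and so did 3112 of 27025 genes with an entry (11.5%). The 8 members with a match were all fitted higher (median 0.32), and of the 14 without one 8 were (median 0.15). This split was not tested. Gclc, Srxn1 and Gstm1, with larger differences than any of the members with a match, were not among these members. The 5 members with a match that were also higher in all 3 pairs are given below on the strand of the gene, with the match in capitals. They are Gclm, Nfe2l2 itself, G6pdx, which makes NADPH, and the glutathione transferases Gstm5 and Mgst1.
Gclm, chr3:122245398-122245456, plus strand: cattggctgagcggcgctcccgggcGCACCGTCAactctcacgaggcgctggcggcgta
Mgst1, chr6:138140446-138140504, plus strand: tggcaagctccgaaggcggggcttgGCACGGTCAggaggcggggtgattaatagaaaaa
Gstm5, chr3:107895787-107895845, plus strand: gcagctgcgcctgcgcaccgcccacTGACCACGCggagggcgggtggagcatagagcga
G6pdx, chrX:74428904-74428962, minus strand: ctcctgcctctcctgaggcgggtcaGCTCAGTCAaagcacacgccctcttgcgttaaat
Nfe2l2, chr2:75704870-75704913, minus strand: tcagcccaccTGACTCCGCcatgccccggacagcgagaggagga
The matches begin 134, 56, 42, 57 and 240 bases before the start site, in the order of the lines. The log2 differences of the 5 genes were 0.54 (SE 0.23), 0.49 (SE 0.37), 0.33 (SE 0.30), 0.30 (SE 0.23) and 0.15 (SE 0.24). For the cholesterol list the SREBP site was searched as TCACNCCAC on both strands, and 1 of the 18 members with an entry held a match, as did 331 of the 27025 genes (1.22%). A match is a description of the letters and not a shown binding site, and a missing match says only that the letters are not in this window.

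Metallothioneins and genes of the hypoxia response gave 11 of 14 fitted higher, 4 higher in all pairs and 0 lower in all (median 0.34, with the offset 0.38). The median was 0.17 without replicate 3 of day 2 and 0.19 without replicate 2 of day 2. Mt2, which binds zinc and copper, measured 25.9, 35.9 and 20.4 CPM and then 41.9, 84.1 and 26.7 CPM (0.87, SE 0.44). Mt1 measured 52.7, 80.8 and 84.5 CPM and then 70.2, 95.1 and 155 CPM (0.46, SE 0.32). Vegfa, the growth factor for vessels, measured 20.4, 50.2 and 34.6 CPM and then 41.4, 55.2 and 44.8 CPM (0.44, SE 0.30). The groups overlapped for all 3.

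Carriers of lipid and enzymes of fatty acids were fitted higher in 14 of 20, with 5 higher in all pairs and 1 lower in all (median 0.15, with the offset 0.25, and 0.34 without replicate 2). Apoe, the main lipoprotein that astrocytes release, measured 252, 311 and 224 CPM at day 2 and 402, 592 and 401 CPM at day 4 (0.81, SE 0.31). Its groups did not overlap, with means of 262 ± 44.1 (SD, n = 3) and 465 ± 110 CPM (SD, n = 3). Acsl3, which activates fatty acids, measured 37.3, 44.3 and 62.7 CPM and then 69.2, 56.4 and 129 CPM (0.76, SE 0.32). Clu, another secreted lipid carrier, measured 605, 2080 and 771 CPM and then 809, 2410 and 1620 CPM (0.53, SE 0.49), and Scd2, a fatty acid desaturase, measured 1220, 1380 and 3950 CPM and then 1800, 1600 and 5460 CPM (0.42, SE 0.25).

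Genes of cholesterol synthesis, which the transcription factor SREBP-2 drives when sterols are low, were mostly lower. Of 25 tested members 21 were fitted lower, 14 were lower in all pairs and 1 higher in all. In 9 of 25 the day 4 values lay below all day 2 values, against 3.18% of all tested genes. The median was -0.41 (-0.18, -0.64 and -0.33 by pair), and the same, -0.41, with the offset. Mvd, which makes isopentenyl diphosphate, measured 17.4, 17.3 and 12.9 CPM and then 8.24, 5.82 and 2.08 CPM (-1.58, SE 0.47, edgeR adjusted p = 0.72). The day 4 mean was 5.38 ± 3.11 CPM (SD, n = 3) and the day 2 mean 15.8 ± 2.56 CPM (SD, n = 3).

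Dhcr7, a late enzyme of the pathway, measured 18.9, 21.5 and 28.3 CPM and then 14.5, 13.1 and 9.43 CPM (-0.84, SE 0.31). Its groups did not overlap. In astrocytes alone the median of the list was -0.19, with 9 of 25 lower in both pairs, and the difference between the kinds of culture had an unadjusted p under 0.05 for 0 of 25.

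Genes linked to TGF-beta, YAP and contractile actin were lower in the pairs of replicates 1 and 3 and near level in replicate 2. These pathways respond to stiffness, spreading and serum. Of 23 tested members 21 were fitted lower, 10 lower in all pairs and 0 higher in all. The median was -0.60 (-0.64, -0.08 and -0.78 by pair; -0.50 with the offset), -0.32 without replicate 1 of day 2 and -0.38 without replicate 3 of day 4. Flna, which crosslinks actin, measured 3120, 2130 and 2130 CPM and then 1720, 2110 and 1010 CPM (-0.65, SE 0.28). Tgfb1i1, an adaptor at focal adhesions, measured 43.6, 26.1 and 18.4 CPM and then 17.3, 21 and 7.87 CPM (-0.94, SE 0.34). Vcl, or vinculin, measured 964, 489 and 490 CPM and then 592, 377 and 302 CPM (-0.60, SE 0.28), and Cnn2, a calponin, measured 561, 261 and 179 CPM and then 323, 209 and 87.7 CPM (-0.72, SE 0.39). In all 4 genes the pair of replicate 2 had the smallest step.

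Secreted factors that act on synapses did not share a direction. Of 13 tested, 10 were fitted higher, but 1 was higher in all pairs, Sparcl1, and 2 were lower in all, the thrombospondins. Thbs1 measured 6400, 4000 and 1690 CPM and then 3420, 3300 and 1330 CPM (-0.53, SE 0.32). Thbs2 measured 128, 227 and 133 CPM and then 101, 124 and 72.7 CPM (-0.67, SE 0.28), with no overlap. Both are matrix proteins that induce silent synapses. Sparc, an antagonist of hevin, measured 2220, 2680 and 1430 CPM and then 2160, 3370 and 2220 CPM (0.27, SE 0.29). Gpc4, a glypican that recruits glutamate receptors, measured 1350, 1260 and 1630 CPM and then 1490, 1560 and 1380 CPM (0.06, SE 0.30, negative without replicate 2 and without single libraries).

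Matrix genes were near level as a group. In the list of collagens and laminins 14 of 32 were fitted higher, with a median of -0.07 that was 0.04 with the offset. Col4a1, a basement membrane collagen, measured 564, 845 and 410 CPM and then 380, 520 and 335 CPM (-0.51, SE 0.24), and Col4a2 measured 251, 264 and 162 CPM and then 168, 210 and 100 CPM (-0.55, SE 0.23). Fbn1, fibrillin, measured 110, 126 and 79.2 CPM and then 82.2, 87.6 and 53.5 CPM (-0.50, SE 0.21). These 3 were lower in all pairs. In the list of lecticans and tenascins, Tnc, or tenascin C, measured 3500, 2640 and 1270 CPM and then 1670, 2040 and 680 CPM (-0.78, SE 0.28). Its binding partner Ptprz1, a receptor phosphatase, measured 246, 186 and 530 CPM and then 360, 285 and 706 CPM (0.52, SE 0.27). Vcan, or versican, measured 72.4, 88 and 53.1 CPM and then 73.6, 118 and 61.8 CPM (0.22, SE 0.27).

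**Figure D4:**
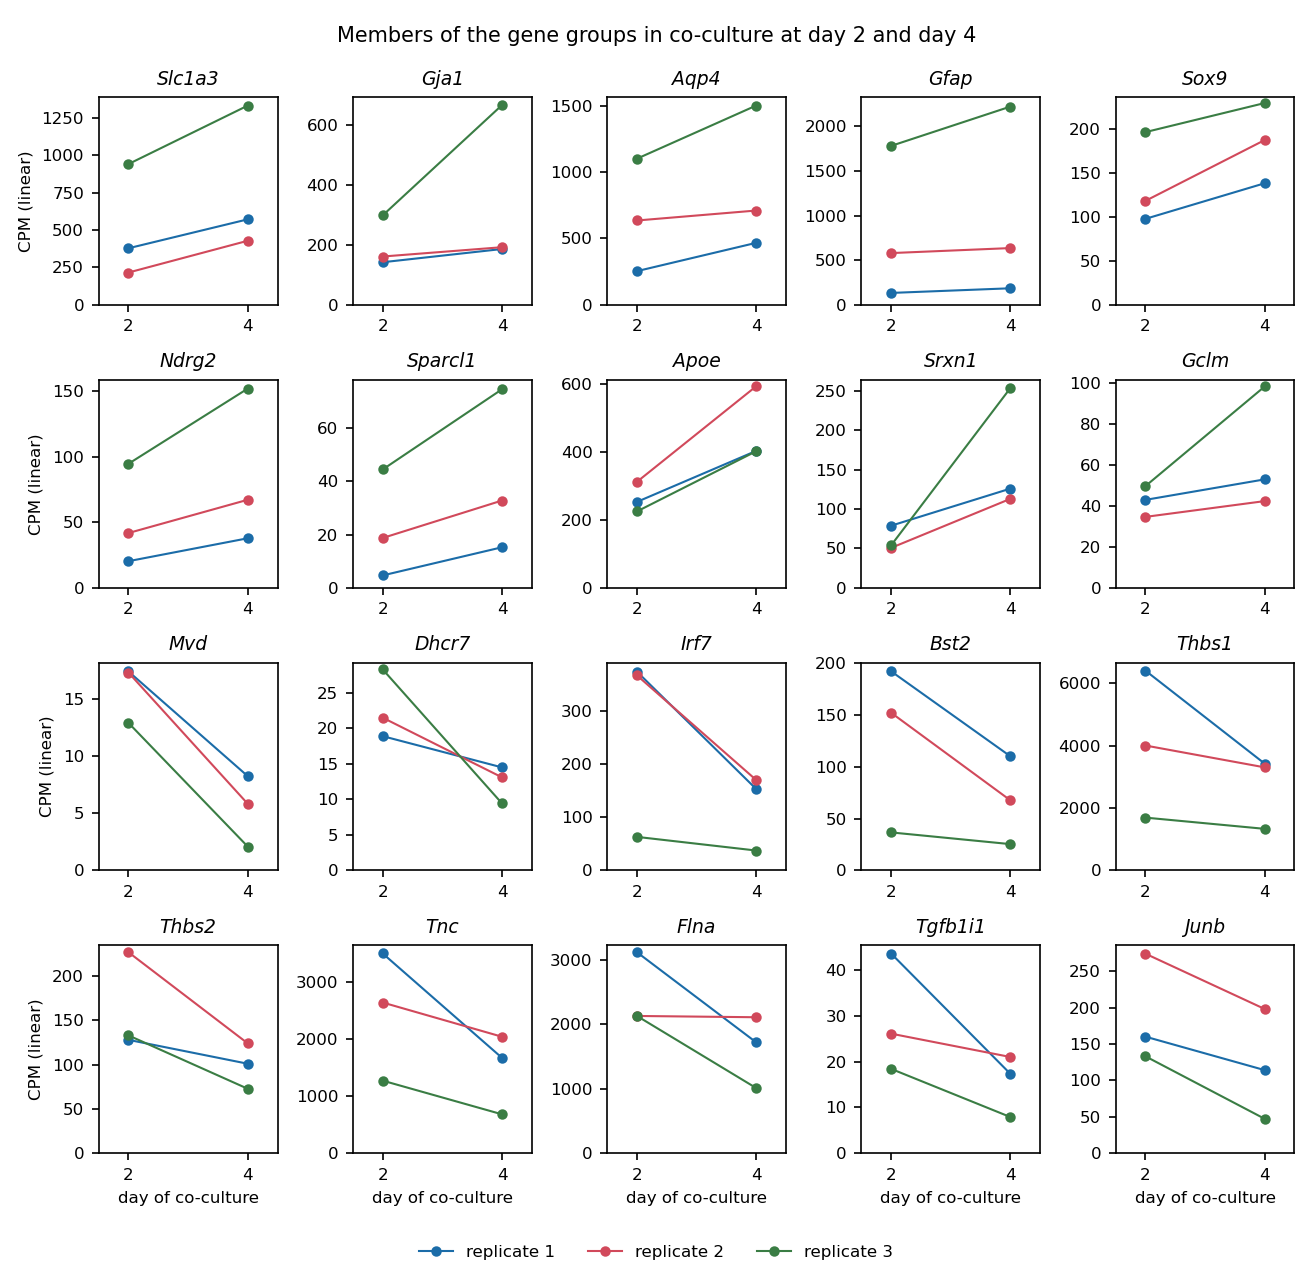
TMM-scaled CPM on linear axes from 0 (vertical) against day of co-culture (horizontal) for 20 of the named members of the groups. All 20 had one direction in 3 of 3 pairs, so the uniform rows follow from the choice. Aldh1l1 and Glul, which were not higher in all pairs, are not shown. Lines join the 2 libraries of one replicate number. Lines go up in the astrocyte, lipid carrier and antioxidant genes of rows 1 and 2 and down in the cholesterol, interferon, matrix, contractile and early response genes of rows 3 and 4. The distance between replicates is often larger than the step, as for Gfap (134 to 1780 at day 2).

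Inflammatory groups had medians below 0. The list of chemokines and cytokines, by which glia attract and activate leukocytes, had a median of -0.98 (-0.67, -1.04 and 0.00 by pair; -0.96 with the offset). Without replicate 2 of day 2 the median was -0.29. Of 24 members 20 were fitted lower, 9 were lower in all pairs and 2 higher in all. Ccl5 measured 19.7, 107 and 20.6 CPM and then 1.89, 20.4 and 0 CPM (-3.56, SE 1.09). Lif, a cytokine of the interleukin 6 family, measured 217, 65.8 and 42.7 CPM and then 88.4, 32.3 and 31.2 CPM (-0.91, SE 0.39). Il33, an alarm signal released from nuclei, measured 7.73, 10.2 and 1.49 CPM and then 2.08, 1.63 and 0.0742 CPM (-2.33, SE 0.96). Ccl7 measured 36.5, 118 and 9.57 CPM and then 15.7, 60.7 and 1.78 CPM (-1.34, SE 0.70).

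Microglial markers were highest in replicate 2, as were Ccl5 and Ccl7. Their summed level was 450 CPM there at day 2 and 258 CPM at day 4, against 94 and 138 CPM in replicate 1 and 55.8 and 72.4 CPM in replicate 3. Cd14 and Cd68, surface and lysosomal proteins of macrophages, were lower in all pairs. Cd14 measured 10.1, 41.3 and 6.49 CPM and then 5.24, 13.8 and 0 CPM, and Cd68 measured 5.6, 13 and 3.32 CPM and then 3.12, 5.22 and 0 CPM. The part of such cells in the cytokine values was not tested.

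Of 27 interferon response genes 25 were fitted lower, 13 were lower in all pairs and 0 higher in all. The median was -0.43 (-0.28, -0.58 and -0.51 by pair; -0.49 with the offset), and no member had an unadjusted p under 0.05. The median was -0.78 without replicate 1 of day 2 and -0.28 without replicate 2 of day 2. Irf7, which amplifies the interferon response, measured 374, 367 and 63 CPM and then 153, 170 and 37.3 CPM (-1.05, SE 0.52). Bst2, or tetherin, measured 192, 152 and 36.6 CPM and then 110, 67.5 and 25.3 CPM (-0.86, SE 0.41). Psmb8, a subunit of the immunoproteasome, measured 34.2, 132 and 23.8 CPM and then 30.6, 56.8 and 6.38 CPM (-1.11, SE 0.54), and Xaf1 measured 58.6, 77.3 and 15.2 CPM and then 43.1, 42.7 and 8.76 CPM (-0.71, SE 0.44). Replicate 3 was lowest at both days in all 4. In astrocytes alone the list had a median of -0.52, with 18 of 27 lower in both pairs.

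The lists of reactive astrocytes did not share a direction. For the A2 list, described after ischemia, 9 of 12 were fitted lower (median -0.69). Tm4sf1, a surface protein of the tetraspanin type, measured 86, 126 and 92.7 CPM and then 57.2, 53 and 67.9 CPM (-0.78, SE 0.27), without overlap. Cd109, a binder of TGF-beta, was higher in all pairs, with 94.7, 75.3 and 216 CPM and then 125, 95.6 and 294 CPM (0.40, SE 0.22). For the A1 list, described after endotoxin, 6 of 13 were fitted higher and the sign of the median differed in 8 of 23 alternatives. Complement C3, its best known member, measured 1500, 6070 and 3620 CPM and then 2610, 10300 and 11300 CPM (1.13, SE 0.78), higher in all pairs. In the pan-reactive list 5 were higher in all pairs and 6 lower in all, of 13. Serpina3n, a protease inhibitor, measured 90.4, 564 and 122 CPM and then 147, 851 and 358 CPM (0.93, SE 0.67). Timp1, an inhibitor of matrix proteases, measured 19.8, 20.1 and 3.51 CPM and then 8.67, 9.14 and 0.0742 CPM (-1.45, SE 0.77).

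Immediate early genes, which growth factors, calcium and the handling of cells induce within minutes, were fitted lower in 23 of 26, with 10 lower in all pairs and 0 higher in all. The median was -0.54 (-0.10, -0.42 and -0.81 by pair; -0.44 with the offset; -0.31 without replicate 3 of day 2). Junb measured 160, 274 and 133 CPM and then 114, 198 and 47.1 CPM (-0.80, SE 0.31). Egr2 measured 4.84, 4.57 and 12.6 CPM and then 1.81, 2.83 and 0.0742 CPM (-1.99, SE 0.93), without overlap. Myc, a growth regulator, measured 8.48, 4.46 and 4.42 CPM and then 2.62, 3.97 and 0.223 CPM (-1.55, SE 0.72), also without overlap. The list of FGF and ERK feedback had 17 of 22 fitted lower (median -0.40), although the pair of replicate 2 had a median of 0.16 and the median without replicate 3 was -0.02. Etv5, a transcription factor downstream of FGF, measured 220, 114 and 187 CPM and then 176, 90.3 and 73 CPM (-0.65, SE 0.26). Dusp4, which inactivates ERK, measured 45.6, 18 and 6.11 CPM and then 25, 6.86 and 4.08 CPM (-0.99, SE 0.44).

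Growth genes depended on the pair. For the cell cycle list of 40, 25 were fitted lower with a median of -0.40, but the pair medians were -0.87, 0.27 and -0.76, so replicate 2 went the other way, and the median was -0.02 without replicate 1 of day 2. In all pairs 8 were lower and 0 higher. Mcm5, a subunit of the replicative helicase, measured 22.5, 21.7 and 8.08 CPM and then 7.63, 12.6 and 0.148 CPM (-1.56, SE 0.80). Rrm2, which makes deoxynucleotides, measured 25.7, 23.8 and 13.2 CPM and then 4.81, 22.9 and 7.35 CPM (-1.14, SE 0.46), and Tyms, which makes thymidylate, measured 12.6, 17 and 4.86 CPM and then 4.16, 6.48 and 4.01 CPM (-1.17, SE 0.46). Mki67, a marker of dividing cells, had no read in replicate 2 at any day. It measured 6.35 and 19 CPM at day 2 and 12.6 and 10.2 CPM at day 4 in replicates 1 and 3, in opposite directions. The 27 replication-dependent histones had a median of -0.32 that was 0.25 without replicate 1 of day 2.

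Among the cytosolic ribosomal proteins 35 of 40 were fitted lower, 16 in all pairs, and 1 was higher in all (median -0.38; -0.53, 0.05 and -0.64 by pair; -0.19 without replicate 1 of day 2). Rplp0 measured 220, 213 and 122 CPM and then 130, 120 and 91 CPM (-0.68, SE 0.27), and Rplp1 measured 229, 220 and 69.7 CPM and then 139, 120 and 38.7 CPM (-0.81, SE 0.32). Such genes have processed copies, so their counts are uncertain. In astrocytes alone 27 of 40 were lower in both pairs (median -0.45).

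Mitochondrially encoded transcripts were fitted higher in 13 of 13, but the median of 0.84 came mainly from replicate 2 (pair medians 0.47, 2.11 and -0.09). mt-Atp8, a subunit of ATP synthase, measured 19, 2.43 and 53.5 CPM and then 32.8, 45.1 and 66.7 CPM. The same pair had the lowest mt-Rnr2 share, at day 2. Over the alternatives the median ranged from 0.24 to 1.39, and its link to the mt-Rnr2 share was not tested.

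The glycolysis list was lower in all 3 pair medians (-0.31, -0.10 and -0.05), while its fitted median of -0.08 was 0.05 with the offset. Slc2a1, the glucose transporter GLUT1, measured 36.9, 27.4 and 48.6 CPM and then 75.3, 30.8 and 101 CPM (0.81, SE 0.29). Hk2, the hexokinase of growing cells, measured 97, 37.7 and 43.2 CPM and then 45, 34.5 and 29.8 CPM (-0.63, SE 0.29). Pdk1, which holds pyruvate back from the mitochondrion, measured 10.2, 15.6 and 32 CPM and then 24.2, 20.5 and 45.8 CPM (0.70, SE 0.30). Each was in 1 direction in 3 pairs, which the naming rule requires.

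For Notch, the contact pathway through which neurons act on astrocytes, 10 of 18 were fitted lower, 5 were lower in all pairs and 0 higher in all. The median was -0.15 (-0.08, -0.12 and -0.18 by pair; -0.07 with the offset), and -0.02 without replicate 3. Its receptor Notch1 measured 579, 747 and 936 CPM and then 561, 549 and 548 CPM (-0.43, SE 0.22), without overlap, and the ligand Jag1 measured 190, 248 and 127 CPM and then 178, 173 and 62.5 CPM (-0.55, SE 0.24). Hes6, a partner of the Hes repressors, measured 30.5, 20.5 and 14.4 CPM and then 17.4, 10 and 6.83 CPM (-0.95, SE 0.40). For BMP, which favours astrocyte differentiation, 12 of 20 were fitted higher, 5 in all pairs, and 2 were lower in all (median 0.23; 0.01 without replicate 1 of day 4). The ligand Bmp4 measured 2.51, 2.88 and 1.35 CPM and then 5.01, 5.12 and 4.53 CPM (1.19, SE 0.60), without overlap, and the target Id3 measured 109, 149 and 115 CPM and then 75, 116 and 71.2 CPM (-0.54, SE 0.20). For Hedgehog, which neurons use to shape astrocytes, 9 of 12 were fitted lower (median -0.13), and the sign differed in 3 of 23 alternatives.

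Insulin-like growth factors and their binding proteins had a median of 0.00, with 7 of 14 fitted higher. Igfbp2 measured 3410, 2870 and 1120 CPM and then 2380, 1700 and 672 CPM (-0.65, SE 0.42), and Igfbp3 measured 1920, 776 and 728 CPM and then 1230, 408 and 398 CPM (-0.80, SE 0.41). Both were lower in all pairs. The lists of phagocytosis (median 0.03), unfolded protein stress (-0.15) and serine synthesis (-0.06) had medians that changed sign between alternatives. Among their members, Gulp1, an adaptor for engulfing dying cells, measured 24.1, 16.1 and 25.8 CPM and then 34.8, 47.6 and 48.8 CPM (1.00, SE 0.32), without overlap. Axl, a receptor for such cells, measured 438, 317 and 200 CPM and then 281, 226 and 188 CPM (-0.42, SE 0.26). Sdf2l1, a cochaperone of the endoplasmic reticulum, measured 10, 11.8 and 6.25 CPM and then 4.66, 5.6 and 1.19 CPM (-1.43, SE 0.56), without overlap, and Gcsh, of the glycine cleavage system, measured 31.1, 41 and 36.1 CPM and then 19.6, 28.1 and 22 CPM (-0.64, SE 0.26), without overlap.

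Of 15 tested markers of ciliated ependymal cells, 14 were fitted higher and 7 were higher in all pairs (median 0.73, with pair medians of 1.19, 0.78 and 0.19; 0.39 without replicate 1). Their summed level was lower in replicate 2 at day 4 (514 against 629 CPM). In astrocytes alone the median was 0.58 (0.66 and 0.47 by pair), with 8 higher and 0 lower in both pairs. Dnah5, an axonemal motor, measured 8.11, 12.3 and 50.4 CPM and then 17.3, 16.8 and 85.7 CPM (0.76, SE 0.38), and Ccdc40, needed to assemble cilia, measured 5.6, 16.4 and 21.5 CPM and then 16.9, 17.3 and 36.3 CPM (0.75, SE 0.37). Markers of fibroblasts and meninges had 9 of 13 fitted higher, 4 in all pairs (median 0.78; 0.26 without replicate 1 of day 4). Dcn, or decorin, measured 0, 2.43 and 10.2 CPM and then 1.08, 4.73 and 43 CPM, and Ogn, or osteoglycin, measured 83.2, 151 and 92.3 CPM and then 180, 213 and 147 CPM (0.78, SE 0.40). Neuron markers had 11 of 20 fitted higher, 2 in all pairs and 4 lower in all (median 0.59; -0.63 without replicate 1 of day 4). Tubb3, a neuronal tubulin, measured 24.3, 15.7 and 6.44 CPM and then 21.5, 11.9 and 4.23 CPM, and Dcx, of migrating neurons, measured 1.55, 9.7 and 2.79 CPM and then 3.58, 0.109 and 0 CPM. The part of these cells in the differences of other genes was not tested.

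Astrocytes alone, compared over the same days, had 2 pairs with both libraries in the fit, replicates 2 and 3. With edgeR 16 genes were called (0.0936%), all higher at day 4 and all among 23 genes that had no read in replicate 2. For the difference between the kinds of culture 14 genes were called (0.0819%), all of them also among those 23. Without these 23 genes edgeR called 0 genes in either comparison, so no other gene was shown to differ between the days in a way that depends on neurons. In the fit of all tested genes an unadjusted p under 0.05 was reached by 338 genes in astrocytes alone (1.98%) and by 248 for the difference (1.45%), and DESeq2 called 2 and 1.

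The fitted list medians of the 2 kinds of culture were close for the inflammatory, ribosomal, cell cycle and early response lists, though not in each matched pair. Chemokines and cytokines had -0.98 with neurons and -0.82 alone, the interferon list -0.43 and -0.52, immediate early genes -0.54 and -0.39, and the cell cycle list -0.40 and -0.34. Astrocyte identity had 0.39 with neurons and -0.09 alone, with 8 of 29 higher and 5 lower in both alone pairs, where all genes had 30% and 26.4%. Transmitter uptake had 0.38 and -0.03, the antioxidant list 0.33 and -0.01, and the contractile list -0.60 and -0.24. The co-culture medians include replicate 1, for which astrocytes alone have no pair. The fitted alone medians also use the day 4 library of replicate 1, whose day 2 partner was left out. For identity and uptake these fitted alone medians lay below both alone pair medians. In replicates 2 and 3, where both cultures have a pair, identity had 0.40 and 0.22 with neurons and 0.13 and -0.02 alone. Uptake had 0.21 and 0.31 with neurons and 0.31 and 0.00 alone, and the antioxidant list 0.38 and 0.48 with neurons and -0.02 and 0.11 alone. The contractile list had -0.08 and -0.78 with neurons and -0.16 and -0.62 alone. In the same replicates the cell cycle list had 0.27 and -0.76 with neurons and -0.28 and -0.45 alone. The ribosomal list had 0.05 and -0.64 with neurons and -0.495 and -0.22 alone, so replicate 2 differed in both lists. Chemokines had -1.04 and 0.00 with neurons and -1.02 and -0.28 alone. Interferon genes had -0.58 and -0.51 with neurons and -0.38 and -0.51 alone. Early genes had -0.42 and -0.81 with neurons and -0.615 and -1.08 alone. The difference itself had an unadjusted p under 0.05 for 0 of 29 identity genes, 1 of 18 uptake genes, 0 of 27 antioxidant genes and 0 of 23 contractile genes, and none was called.

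**Figure D5:**
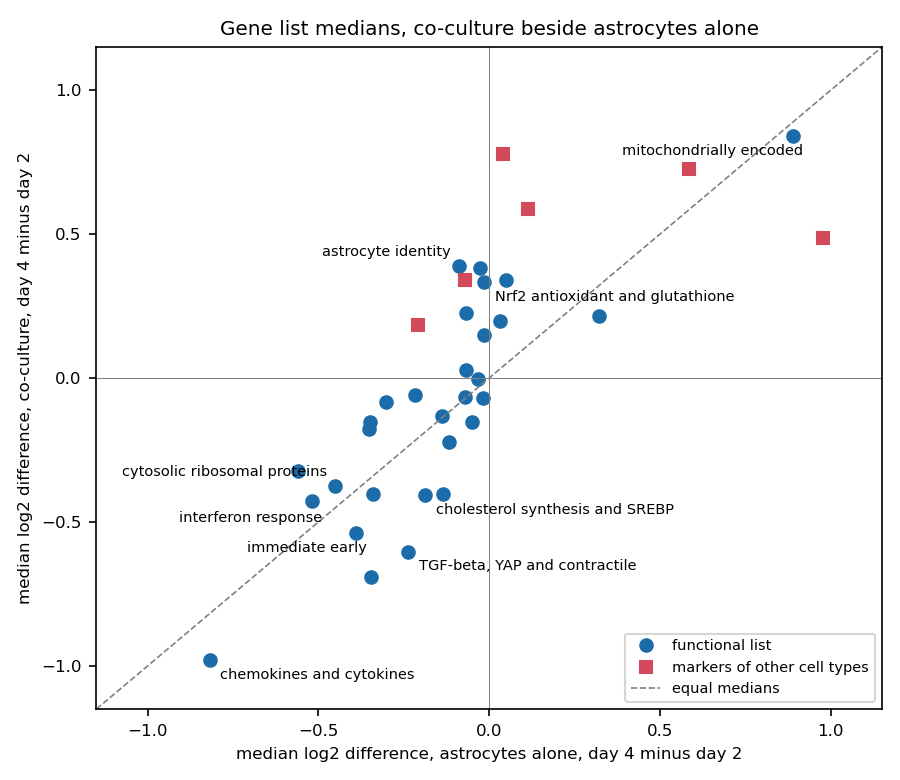
Median log2 difference, day 4 minus day 2, of each list with neurons (vertical) and in astrocytes alone (horizontal). Circles are the 30 functional lists, squares the 6 marker lists, and the dashed line marks equal medians. Chemokines and cytokines lie near the line at -0.98 and -0.82, and astrocyte identity lies above it at 0.39 and -0.09. The fitted alone medians also use a day 4 library of replicate 1 without a day 2 partner. The alone pair medians of identity were 0.13 and -0.02 (replicates 2 and 3).

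Of the 20 genes with the smallest p, 14 had the same direction in both alone pairs, 7 of the higher and 7 of the lower ones. Over all tested genes, 30% were higher and 26.4% lower in both alone pairs. The difference between the cultures had an unadjusted p under 0.05 for 8, against 1.45% of all tested genes, and 0 were called. The genes were chosen by the co-culture side of this same contrast, so nothing is read from the 8. Itgb1bp1 had the smallest p for the difference outside the 23 genes. In astrocytes alone it measured 20 and 17.7 CPM at day 2 and 14 and 14.7 CPM at day 4 (replicates 2 and 3), so the day 2 co-culture values of 5.13 and 8.03 CPM were the low ones. The difference was 1.76 (SE 0.53, edgeR adjusted p = 1). Lrp3 measured 23.4 and 15.2 CPM and then 24.3 and 17.9 CPM alone, with a difference of -1.31 (SE 0.44). Sparcl1 measured 29.1 and 55.5 CPM and then 32.4 and 68.4 CPM alone, with a difference of 1.06. Rida measured 38.3 and 73.1 CPM and then 37.5 and 118 CPM alone, with a difference of 0.92.

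The day 7 co-culture, which has replicates 2 and 3 in the fit and is set against the same day 2 libraries, placed 18 of the 20 on the same side of day 2 in both replicates. Rida measured 67.8 and 114 CPM at day 7, above its day 4 values, and Gclc measured 250 and 223 CPM. Cyp4f15 was back at 1.11 and 1.83 CPM. Among the lower genes, Lrp3 measured 16.3 and 17.4 CPM and Vgf 5.92 and 5.94 CPM. Because the day 2 libraries are shared, these values follow in part from the choice of the genes.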

How the data were processed

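RNA was sequenced from 18 libraries, and the 6 co-culture libraries of day 2 and day 4 were compared. The authors deposited raw read counts per gene, made with Subread and featureCounts on mm9 per the submitters' processing notes, which name neither versions nor strand use. Overlapping genes therefore cannot be told apart. Per the labels' protocols, ribosomal RNA was removed and low-input SMARTer libraries were sequenced. The table also held 17 columns of correlations that were not used. Genes are Entrez IDs, and 24207 of 26301 received a symbol from RefSeq (GRCm38.p6) or a second table. Promoter sequences came from RefSeq, with coordinates of GRCm38.p6.

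From the counts, edgeR 4.0.16 in R 4.3.3 fitted 6 group means plus the replicate number as a block to 16 libraries (quasi-likelihood F test, TMM, filterByExpr, Benjamini-Hochberg adjusted p under 0.05). CPM values are TMM-scaled, and log2 CPM uses a prior count of 2. The block is supported by the labels, which give each number one date. After subtracting group means, same-numbered libraries of the 2 days had correlations of 0.486 to 0.504 (9620 genes) and others -0.404 to -0.0854. Replicates differed by far more than sampling noise (chi-square over degrees of freedom 126 to 235). The procedure was tested on simulated data.

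The genes named are the 10 per direction with the smallest p. They were taken among genes with a symbol, at least 1 log2 CPM on average and one direction in 3 pairs. To these come up to 4 members per list, by smallest p among the members with one direction in 3 pairs. Also named are 5 genes with the smallest p for the difference between cultures, and 20 markers whatever their result. A few of them are not reported here. The comparison, lists and rule were chosen with earlier results of these data known. GC content was known for 87.7% of tested genes. Alternatives were DESeq2 1.42.0, limma 3.58.1 (voom), other scalings and filters, other library sets and leaving out libraries.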

Additional observations from a re-analysis of the deposited data

Results flagged for a closer look

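The difference between day 4 and day 2 itself differed between co-cultures and astrocytes alone for 14 genes by edgeR's quasi-likelihood test, and these are the 5 with the smallest p. On the log2 scale the contrast was -16.1 for Ntrk2 (adjusted p = 0.000119), -12.9 for Tut7 (adjusted p = 0.000119), -12.7 for Hnrnpk (adjusted p = 0.000119), -12.9 for Gas1 (adjusted p = 0.000936) and -11.9 for Tmem254a (adjusted p = 0.00125). Each belongs to the 23 genes without a read in replicate 2. Each also had no read in replicate 3 of astrocytes alone at day 2, so no fitted day 2 library of astrocytes alone had a read. The day 7 co-culture of replicate 3 had no read of these 5 genes either, so the gap is not confined to astrocytes alone. The co-cultures of replicate 3 at days 2 and 4 had 2267 and 1291 reads of Hnrnpk. The source of the gap was not tested. These fitted values depend on the prior count and give no size. In the co-culture pairs of replicates 1 and 3, Ntrk2, the receptor for BDNF, measured 493 and 1530 CPM at day 2 and 829 and 2690 CPM at day 4. Without replicate 3 the sign turned for Ntrk2, Tut7, Hnrnpk and Gas1. Outside the 23 genes the smallest p belonged to Itgb1bp1, with a difference of 1.76 (SE 0.53, edgeR adjusted p = 1).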

How the results depend on the processing

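The count of 0 genes between day 4 and day 2 of co-culture held under all alternatives except DESeq2, which called 65. The cause was not tested. The smallest edgeR adjusted p was 0.0538 with the 6 libraries alone, and 0.0626 with limma-voom.

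Without the replicate block the count stayed at 0 for co-culture, and it was 0 instead of 16 for astrocytes alone and 0 instead of 14 for the difference between cultures. With all 18 libraries, with or without the replicate block, and without the 23 genes that have no read in replicate 2, both were 0. DESeq2 called 2 and 1. Leaving out replicates gave 0 to 45 for astrocytes alone and 0 to 34 for the difference, the highest without replicate 2.

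Of 149 named genes, 144 kept their sign in all alternatives. Mki67 was -0.151 without the block, -0.372 with 18 libraries, -0.164 with 18 libraries and no block, -0.0858 with DESeq2 and -0.146 with 6 libraries and no block. Notch3 was 0.0071 with the GC and length offset. With libraries left out, log2 differences ranged from -0.177 to 0.561 for Glul, -0.106 to 0.246 for Gpc4, -0.837 to 0.963 for Mki67 and -4.12 to 2.71 for S100b. The difference between cultures ranged from -14.1 to 1.14 for Gas1, -13.9 to 0.388 for Hnrnpk, -17.3 to 1.46 for Ntrk2 and -14.1 to 0.00775 for Tut7. The causes were not tested. Without replicate 3 the median of all genes shifted by 0.107. Between 0.103 and 0.223 CPM, 3 reads set the floor. The day 2 values of Cyp4f15 (36, 3 and 34 reads) and Dscaml1 (23, 7 and 26 reads) rest on few reads. At day 4 these genes had 207, 79 and 150 reads and 85, 251 and 114 reads. Ntsr2 rests on few reads in replicates 1 and 2, with 3 and 0 at day 2 and 39 and 8 at day 4.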
